A study of Homo sapiens with 60 samples.

Results

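Schisandrae Fructus, the dried fruit of the magnolia vine Schisandra, was applied as an ethanol extract for 24 h to SW1783, an established human astrocytoma cell line. The medium dose (62 µg/mL, 3 libraries) was compared with the low dose (12.4 µg/mL, 3 libraries), which made 6 of the 60 RNA-sequencing libraries of the series. The libraries were chosen by their labelled extract and dose, and the question was which changes of the high dose (310 µg/mL, 3 libraries) already showed at the medium dose. By the design text, an extract whose IC20 lay under the standard top dose was given at its IC20, with the medium and low doses 5 and 25 times lower.

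Other groups served as references. An extract of Liriopis seu Ophiopogonis Tuber, a root tuber, was given at a low (20 µg/mL) and a medium (100 µg/mL) dose, with 3 libraries each, and its libraries carry the same library set number as those of Schisandrae. The DMSO vehicle (3 libraries) has a library set of its own, and the labels and the design text give different DMSO concentrations, so its levels are shown but not tested. All groups were SW1783 cells in Leibovitz's L-15 medium with serum. Nothing in the labels says that the 3 libraries of a group came from separate cultures, so the p-values rest on the scatter among these libraries, which may be technical.

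Libraries held 25.12 to 28.71 M counts at the medium dose, 20.71 to 26.07 M at the low dose, 29.66 to 32.57 M at the high dose and 22.27 to 25.44 M at the Liriopis low dose. Mitochondrially encoded genes took 11.5 to 14.1% of the counts at the medium dose and 11.7 to 12.3% at the low dose. Of the defining astrocyte markers, GFAP (0.171 CPM at the medium dose, where CPM stands for counts scaled to a library of 1000000), S100B (0.0625), AQP4 (0.0133) and ALDH1L1 (0.0249) were at or near 0, whereas VIM (4790), SOX9 (70.2) and SLC1A3 (24.7) were expressed. Summed markers of microglia and blood cells ranged from 9.53 to 11.4 CPM at the medium dose and from 10.9 to 13.4 at the low dose. Of these markers, PTPRC averaged 7.32 CPM at the medium dose and 8.7 at the low dose, and CSF1R averaged 3.16 and 3.74. CD3E and HBB were at 0 in both groups. Summed neuron markers ranged from 157 to 164 and from 161 to 164 CPM, oligodendrocyte markers from 6.38 to 7.26 and from 5.15 to 6.06, endothelial and epithelial markers from 158 to 165 and from 152 to 164, and fibroblast and mural markers from 4200 to 4680 and from 4170 to 4270.

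Several of the genes below belong to known circuits. TXNIP and ARRDC4 are alpha-arrestins that restrain glucose uptake, and both are transcribed by MondoA with its partner Mlx, a pair that binds DNA when sugar phosphates build up in the cell. MondoA and Mlx bind E-box-like sites whose core is the half-site CACG, usually as a pair of such boxes in the promoter. L-15 medium carries galactose as its main sugar in place of glucose. The fruit is known for lignans, which act on many enzymes and transporters.

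At the medium dose 7 of 17851 genes tested (0.0392%) differed from the low dose at an adjusted p below 0.05 in edgeR's quasi-likelihood test with Benjamini-Hochberg adjustment. Of these 5 rose, among them TXNIP, the carboxypeptidase M gene (symbol CPM, as the unit), ALDH1A3 and RGMB, and 2 fell, LIPG and FAM13B. In bulk RNA, fewer cells that express a gene and less of its RNA per cell cannot be told apart. None of these 7 genes changed 2-fold: the rises were between 1.17-fold and 1.54-fold, and the falls were to 0.726 and 0.752 of the low-dose level. At the high dose 8055 genes (45.1%) differed from the Liriopis low dose, 3895 upward and 4160 downward, and these 2 comparisons have no library in common. All 7 medium-dose genes were among the 8055, each in the same direction, which is 0.0869% of the high-dose genes. The medium-dose count was 11 by DESeq2, 14 when the 6 medium and low-dose libraries were fitted alone, 100 without the low-count filter (42 of them called the same way at the high dose), and 4 without medium replicate 2 or low replicate 3.

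TXNIP, which binds and inhibits thioredoxin, rose most. Its libraries read 14.1, 12.8 and 15.2 CPM at the medium dose and 9.53, 9.25 and 8.59 at the low dose. Every medium library lay above every low-dose library and above the Liriopis low dose (9.44, 9.77 and 8.72) and the vehicle (10.8, 10.5 and 9.68). The log2 difference from the low dose was 0.62 ± 0.08 (standard error, edgeR adjusted p = 3.18e-05), a 1.54-fold level. At the high dose TXNIP reached 295, 276 and 289 CPM, 30.8-fold over the Liriopis low dose (log2 4.94 ± 0.08). TXNIP passed under all 13 alternatives tried (adjusted p from 4.37e-09 to 0.00729). The medium difference was 12.5% of the high one on the log2 scale, and the step from medium to high was 4.35 ± 0.07.

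ARRDC4, the closest partner of TXNIP among the MondoA targets, did not pass at the medium dose. Its libraries read 6.72, 7.14 and 6.29 CPM at the medium dose, 6.47, 5.23 and 5.05 at the low dose and 31.6, 28.1 and 28.6 at the high dose. The medium and low groups overlapped, and the log2 difference was 0.26 ± 0.09 (95% interval 0.07 to 0.45, edgeR adjusted p = 0.813). At the high dose ARRDC4 rose by a log2 difference of 2.39 ± 0.08, of which the medium difference was 10.9%. The other members of the MondoA list were the regulators themselves: MLXIP (MondoA) differed by 0.00 and MLX by 0.01 at the medium dose, and MLXIPL by 0.76 with an unadjusted p of 0.15. All 5 listed genes rose at the high dose (median log2 difference 1.85), against a median of 0.26 at the medium dose and 1 of 5 passing there.

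Since TXNIP and ARRDC4 are targets of the same pair of regulators and both rose at the high dose, the 250 bases upstream of their most upstream annotated start are shown from RefSeq (GRCh38.p14), with every CACG or its complement CGTG in capitals. The TXNIP stretch lies at chr1:145996580-145996829 on the minus strand and the ARRDC4 stretch at chr15:97960453-97960702 on the plus strand.
TXNIP: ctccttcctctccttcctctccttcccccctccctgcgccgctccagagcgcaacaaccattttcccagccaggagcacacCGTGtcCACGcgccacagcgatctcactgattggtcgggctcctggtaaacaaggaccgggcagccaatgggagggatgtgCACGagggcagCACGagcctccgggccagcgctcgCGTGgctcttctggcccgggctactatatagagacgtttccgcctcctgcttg
ARRDC4: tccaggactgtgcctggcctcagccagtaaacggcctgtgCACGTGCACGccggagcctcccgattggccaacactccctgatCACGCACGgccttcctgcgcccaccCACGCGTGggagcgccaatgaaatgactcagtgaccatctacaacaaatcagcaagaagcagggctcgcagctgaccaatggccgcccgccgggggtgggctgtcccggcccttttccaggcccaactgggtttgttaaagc
The half-site was searched as CACG on both strands, a choice made after the expression values were seen. It matched 5 places in the TXNIP stretch and 7 in the ARRDC4 stretch, where matches overlap. At least 1 match was present in 60.6% of 27305 promoters of this length, 5 or more in 3.61% and 7 or more in 0.82%. These are matches of letters and not measured binding.

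ALDH1A3, which oxidises retinaldehyde to retinoic acid, rose from 614, 593 and 587 CPM at the low dose to 728, 741 and 699 at the medium dose. Its log2 difference was 0.27 ± 0.04 (edgeR adjusted p = 8.4e-05). Every medium library lay above every library of the low dose, the Liriopis low dose (566 to 638) and the vehicle (575 to 586). The high dose reached 1330, 1290 and 1290 CPM, a log2 difference of 1.13 ± 0.04 from the Liriopis low dose, so that the medium difference was 24.1% of the high one. ALDH1A3 lies at chr15:100877714-100916626 (GRCh38, plus strand). An antisense transcript that overlaps it, AC015712.2, averaged 49.7 and 59.9 CPM of all counts at the low and medium dose, and since the strand setting of the counting is not given in the sources used here, reads of the 2 genes cannot be told apart. The call held under all 13 alternatives tried. The other 8 retinoid genes tested, among them the receptor gene RARB (log2 difference -0.01), did not pass at the medium dose.

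LIPG encodes endothelial lipase, a secreted phospholipase of lipoproteins. It fell from 15.1, 14.9 and 13.3 CPM at the low dose to 10.6, 10.6 and 10.3 at the medium dose, with no overlap. The log2 difference was -0.46 ± 0.06 (edgeR adjusted p = 3.18e-05). At the high dose LIPG read 8.22, 8.36 and 8.69 CPM, and its log2 difference from the Liriopis low dose was -0.71 ± 0.06. The medium difference was 64.7% of the high one, the highest share among the 7 genes, and the further step from medium to high was -0.32 ± 0.06 (adjusted p = 7.22e-05). The call at the medium dose held under all 13 alternatives tried.

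FAM13B, which encodes a protein with a GTPase-activating domain, fell from 54.2, 53.1 and 52.1 CPM at the low dose to 38.9, 42.3 and 38.6 at the medium dose. The log2 difference was -0.41 ± 0.08 (edgeR adjusted p = 0.0286), and the groups did not overlap. The high dose read 17.5, 15.6 and 15.2 CPM, a log2 difference of -1.79 ± 0.09 from the Liriopis low dose. The medium difference was 23% of it. The call at the medium dose ended when any of the 6 medium or low-dose libraries was left out, with adjusted p from 0.0513 without medium replicate 2 to 0.243 without medium replicate 1.

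RGMB and the carboxypeptidase M gene depended on the reference. RGMB, a co-receptor for bone morphogenetic proteins, read 58.2, 61.5 and 62 CPM at the medium dose and 51.1, 52.7 and 51.2 at the low dose (log2 difference 0.23 ± 0.04, edgeR adjusted p = 0.00755). The carboxypeptidase M gene, whose product is a membrane enzyme that trims basic residues from peptide ends, read 24, 24.3 and 24.7 CPM at the medium dose and 19.5, 21 and 19.9 at the low dose (0.27 ± 0.06, adjusted p = 0.0428). Both genes had medium libraries above all low-dose, vehicle and Liriopis low-dose libraries. RGMB passed under 5 of 13 alternatives and the carboxypeptidase M gene under 3 of 13. Against the Liriopis low dose the log2 differences were 0.13 ± 0.04 for RGMB (adjusted p = 0.437) and 0.16 ± 0.06 for the carboxypeptidase M gene (adjusted p = 0.475). At the high dose RGMB read 107, 102 and 107 CPM and the carboxypeptidase M gene 40.6, 39.3 and 39.5 CPM. The carboxypeptidase M gene overlaps MDM2 on the opposite strand, which averaged 40.5 and 41.4 CPM of all counts at the low and medium dose.

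In all 7 genes the medium-dose libraries did not overlap the low-dose ones. Over all genes tested 1133 (6.35%) had every medium library above every low-dose library and 1122 (6.29%) had every one below, so that non-overlap alone was common.

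**Figure D1:**
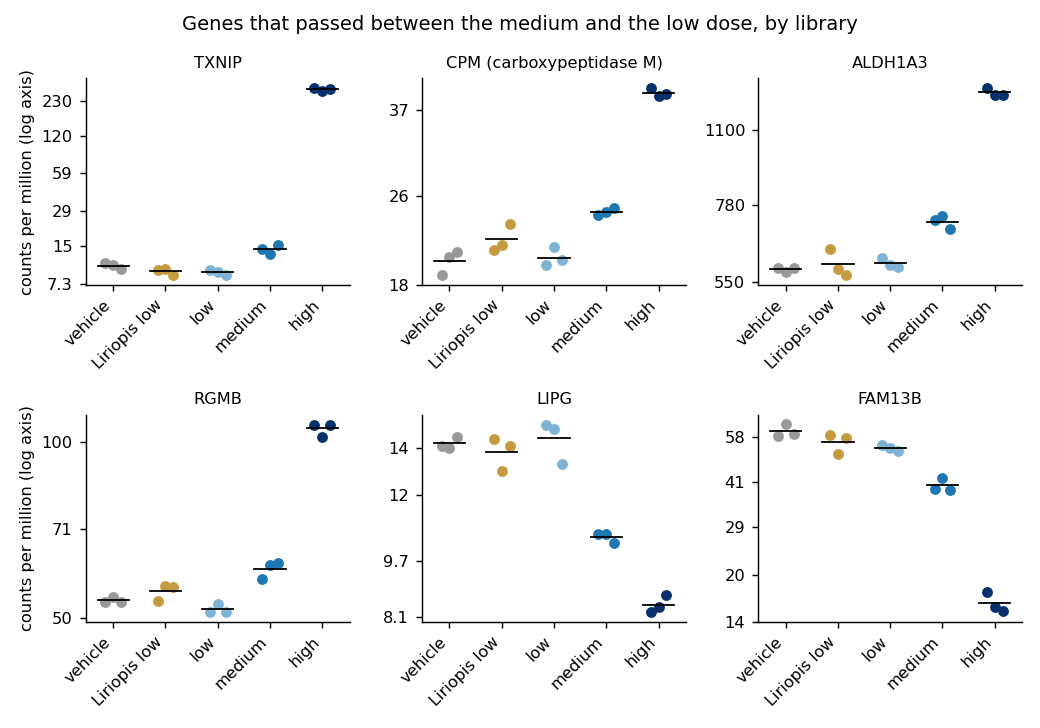
CPM (log axis) in each library of 6 genes that passed between the medium and the low dose; points are libraries, lines are group means, and low, medium and high are doses of Schisandrae Fructus. TXNIP libraries sit between 12.8 and 15.2 at the medium dose and between 276 and 295 at the high dose, and LIPG libraries fall from 13.3 to 15.1 at the low dose to between 10.3 and 10.6 at the medium dose.

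With the Liriopis low dose as reference, 15 genes (0.084%) passed at the medium dose, 9 upward and 6 downward. TXNIP (log2 difference 0.59 ± 0.08, edgeR adjusted p = 0.00011), ALDH1A3 (0.28 ± 0.04, 0.00011), LIPG (-0.39 ± 0.06, 0.000857) and FAM13B (-0.48 ± 0.08, 0.00247) were called with either reference. This second comparison shares the medium libraries with the first and is no independent replicate of it. The genes called with this reference only were chosen for naming after their values were seen. NDRG1, a stress- and hypoxia-induced gene, read 66.4, 64.3 and 68.6 CPM at the medium dose, 53.1, 53.5 and 54.8 at the Liriopis low dose and 56.2, 57.6 and 60.4 at the low dose of Schisandrae. Its log2 difference was 0.30 ± 0.05 (adjusted p = 0.00308), against 0.20 ± 0.05 from the Schisandrae low dose (adjusted p = 0.398). ALDOC, a glycolytic aldolase, differed by 0.51 ± 0.08 from the Liriopis low dose (adjusted p = 0.000887) and by 0.25 from the Schisandrae low dose. The leptin receptor gene LEPR differed by 0.39 ± 0.07 from the Liriopis low dose (adjusted p = 0.00849).

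No gene passed between the low doses of Schisandrae and Liriopis (0 of 17851, 0%) by edgeR, with 737 genes at an unadjusted p below 0.05 and 1 gene called by DESeq2. No gene passed between the medium and low dose of Liriopis either (0%), with 1300 genes at an unadjusted p below 0.05 and 2 called by DESeq2. With the replicate number as a block over the whole library set, 1 gene passed between these Liriopis doses, CHI3L1, named after its value was seen. Between the medium and low dose of Schisandrae 832 genes (4.66%) had an unadjusted p below 0.05. The difference between the extracts in their medium-to-low change was tested directly, at doses that differ, and passed for 2 genes (0.0112%), among them TXNIP. It differed by 0.70 ± 0.12 between the extracts (edgeR adjusted p = 0.00429). TXNIP did not pass that test with library set 9 fitted alone (adjusted p = 0.0829) or without Liriopis low replicate 2 (0.0529). LIPG (-0.36 ± 0.09, adjusted p = 0.283), ALDH1A3 (0.23 ± 0.06, 0.314), RGMB (0.26 ± 0.06, 0.172), FAM13B (-0.35 ± 0.11, 0.775) and the carboxypeptidase M gene (0.27 ± 0.08, 0.684) did not pass that test.

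From medium to high dose 7494 genes (42%) changed, and from low to high 8195 (45.9%). Most of the genes that moved furthest at the high dose did not pass at the medium dose. Among rises, THBD (thrombomodulin, a cell surface anticoagulant) read 10.2, 11.9 and 10.3 CPM at the medium dose, 8.6, 8.99 and 8.78 at the low dose and 61, 59.5 and 58.7 at the high dose. Its medium libraries lay above all low-dose ones, but the log2 difference of 0.29 ± 0.07 did not pass (edgeR adjusted p = 0.154), against 2.74 ± 0.06 at the high dose. CXCL8, a chemokine for neutrophils, read 3.72, 3.99 and 3.91 CPM at the medium dose, 2.56, 2.56 and 2.45 at the low dose and 21.7, 18.9 and 22.9 at the high dose. Its difference of 0.61 ± 0.14 did not pass either (adjusted p = 0.154), and its low-dose libraries lay below those of the Liriopis low dose (2.91 to 3.44). ANGPTL4, an inhibitor of lipoprotein lipase, differed by 0.35 ± 0.10 at the medium dose (adjusted p = 0.491) and 2.36 ± 0.09 at the high dose. IL1B, an inflammatory cytokine gene, differed by 0.39 ± 0.11 (adjusted p = 0.488) and 2.02 ± 0.10.

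The other leading rises gave medium-dose log2 differences of 0.39 for the keratin-associated protein gene KRTAP2-3, 0.22 for the peptide hormone gene ADM2 and 0.12 for the receptor gene CD93. SLX1B, which has a near-identical copy in the genome, was called at the high dose with libraries of 1.38, 1.75 and 19.4 CPM, so that 1 library carried its fold change. At the medium dose it read 2.83, 0.399 and 1.48 CPM.

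Among falls, LGR6, a receptor for R-spondins, read 4.02, 2.91 and 3.98 CPM at the medium dose, 5.66, 5.42 and 6.13 at the low dose and 0.337, 0.604 and 0.727 at the high dose. The medium-dose difference of -0.65 ± 0.16 had an edgeR adjusted p of 0.207, whereas the high dose fell by 3.27 on the log2 scale. ITGB8, an integrin subunit that activates latent TGF-beta, read 32.9, 32.6 and 32.4 CPM at the medium dose, 39.4, 40.7 and 42.4 at the low dose and 5.15, 5.28 and 4.93 at the high dose. Its difference of -0.32 ± 0.09 did not pass (adjusted p = 0.488). The serotonin receptor gene HTR2A (-0.30), the exchange factor gene VAV3 (-0.24), the ephrin receptor gene EPHA3 (-0.24), KLHL4 (-0.23), the leukocyte phosphatase gene PTPRC (-0.23), the transcription factor gene SP8 (-0.22), the heparan sulfate enzyme gene NDST3 (-0.20) and LINC01963 (-0.18) were also lower without passing. Without the low-count filter CXCL8 (adjusted p = 0.00682), ANGPTL4 (0.0219), LGR6 (0.0037) and ITGB8 (0.00513) passed at the medium dose, and ITGB8 also with library set 9 fitted alone (0.0297) and with the medium and low-dose libraries fitted alone (0.0145). Among the 20 leading high-dose genes TXNIP was called at the medium dose in the test used here, LGR6 was called in addition with the replicate number as a block (adjusted p = 0.0376), and 19 of the 20 had a medium-dose difference with the sign of the high-dose one, SLX1B being the exception.

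Over the whole high-dose response the medium dose leaned the same way. Of the 8055 genes called at the high dose against the Liriopis low dose, 5899 (73.2%) had a medium-to-low difference of the same sign, compared with 55.1% of the 9796 genes not called. Among the called genes 512 had an unadjusted medium-dose p below 0.05 on the same side and 30 on the opposite side. The median signed difference was 0.0422 on the log2 scale, against 0.414 at the high dose, and the median standard error of a single gene was 0.1, so that differences of this size were not detectable gene by gene. With the references exchanged, so that the high dose was set against the Schisandrae low dose and the medium against the Liriopis low dose, the share was 64.2% (5258 of 8195) and the median 0.0308. Genes are not independent replicates, and these shares are given as a description.

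The low dose set against the Liriopis low dose leaned slightly the other way. Of the 7494 genes that changed from medium to high, 3236 (43.2%) had a low-dose difference with the sign of the high-dose one. The median signed difference was -0.0137. The Schisandrae low dose is the reference of the 73.2% share, and its part in that share was not tested. The medium dose of Liriopis against its low dose gave 54.8% over the 8195 genes called between the high and low dose of Schisandrae.

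**Figure D2:**
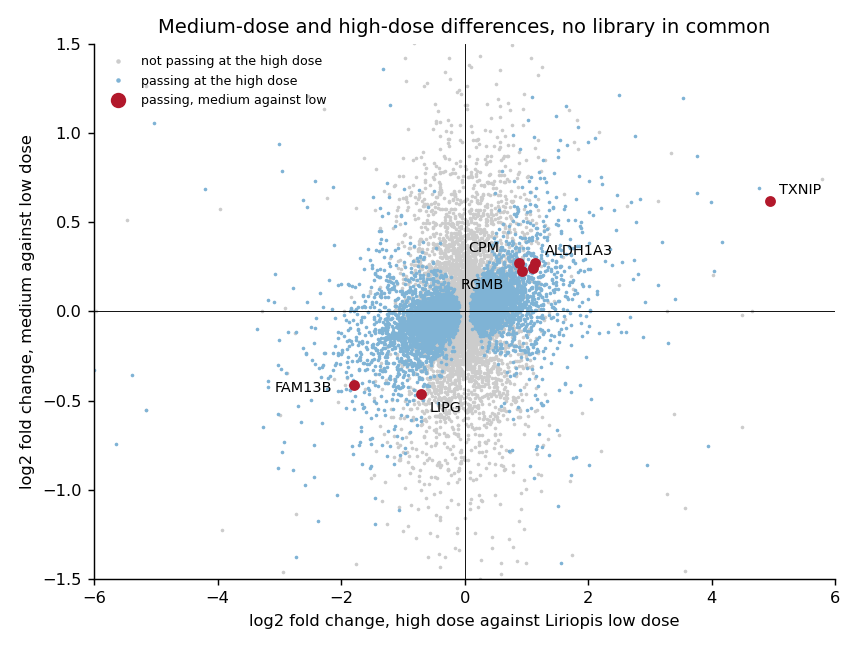
Log2 fold change of the medium against the low dose (vertical) by that of the high dose against the Liriopis low dose (horizontal), 1 point per gene; blue genes passed at the high dose and red genes in the medium-to-low comparison. TXNIP stands at 4.94 and 0.62, and of the 17851 genes 128 lie outside the axes.

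The medium difference scaled with the high-dose difference. For genes that rose at the high dose by less than 0.5 on the log2 scale, the median medium difference was 0.0308 (2489 genes). It was 0.0753 for rises of 0.5 to 1 (949 genes), 0.134 for rises of 1 to 2 (397 genes) and 0.322 for rises above 2 (60 genes). The corresponding medians for falls were -0.0279 (2354 genes), -0.0748 (1200 genes), -0.134 (521 genes) and -0.29 (85 genes). In each of these 8 classes the median medium difference was between 9.46% and 12.6% of the median high difference. By that measure LIPG, at 64.7%, and ALDH1A3, RGMB, FAM13B and the carboxypeptidase M gene, at 23 to 31.3%, stood above the class medians, and TXNIP, at 12.5%, stood close to them. The 7 genes were called at the medium dose, which favours large medium differences, so the contrast is a description. The classes and the shares of single genes took the medium dose against the Schisandrae low dose only. With the Liriopis low dose as reference the medium differences were smaller for RGMB (0.13), the carboxypeptidase M gene (0.16) and LIPG (-0.39). The fall of FAM13B was larger (-0.48), and the differences of TXNIP and ALDH1A3 moved little. With the references exchanged, the median medium difference over all genes called at the high dose was 0.0308, against 0.421 for the high dose.

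**Figure D3:**
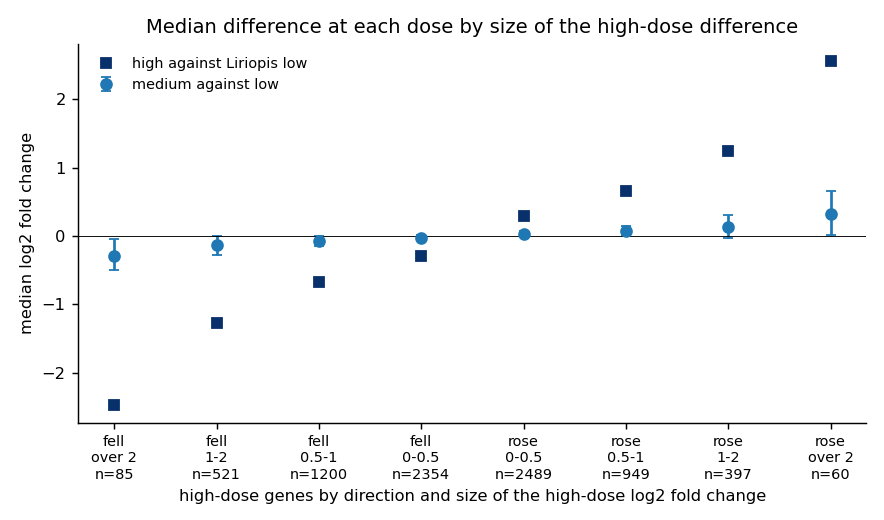
Median log2 fold change of genes called at the high dose, by direction and size of the high-dose difference; circles are the medium against the low dose with bars from the lower to the upper quartile, squares the high against the Liriopis low dose. The circles follow the squares at 9.46 to 12.6% of their height, from -0.29 for the strongest falls to 0.322 for the strongest rises.

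Few listed genes were called at the medium dose. Among the 34 lists, TXNIP of the MondoA list and ALDH1A3 of the retinoid list passed. With 0.0392% of all genes called at the medium dose, a list with none is not set apart from the rest, and the high-dose counts below stand beside 45.1% of all genes called there (3895 higher and 4160 lower). The median of all genes tested was 0.00 at the medium and -0.01 at the high dose. List members named below that did not pass were chosen for naming after their values were seen.

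Inflammatory and interferon genes took opposite directions at the high dose. Of 27 NF-kB and cytokine genes tested, 16 rose and 4 fell there (median 0.51), and none passed at the medium dose, where the median was 0.06 and 19 of 27 lay above 0. Besides CXCL8 and IL1B, the neutrophil chemokine gene CXCL5 differed by 0.56 at the medium dose (unadjusted p = 0.0931) and the NF-kB subunit gene NFKB2 by 0.16 (0.0463). CXCL1 differed by 0.93 there without passing at either dose, and IL6 (-0.14), CCL2 (-0.14) and CSF2 (-0.79) were among the members below 0. Of 27 interferon-response genes 18 were lower and 3 higher at the high dose by the test (median -0.61). At the medium dose none passed, the median was -0.13 and 4 of 27 lay above 0. The antiviral genes IFIT1 (-0.27, unadjusted p = 0.0189), OAS2 (-0.41, 0.0305), RIGI (-0.24, 0.0198) and IFI44 (-0.17, 0.0203) were its members with an unadjusted p below 0.05. With the Liriopis low dose as reference the medium-dose medians were 0.00 for the NF-kB and cytokine list and -0.12 for the interferon list.

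Genes of fatty acid and cholesterol synthesis lay mostly below 0 at the medium dose, and those of PPAR-driven lipid use mostly above 0. Of 14 fatty acid synthesis genes 8 were lower and 3 higher at the high dose by the test (median -0.20), and at the medium dose none passed, the median was -0.07 and 1 of 14 lay above 0. FADS2, the delta-6 desaturase gene, read 61.2, 63.6 and 64.7 CPM at the medium dose, 70, 81.8 and 75.9 at the low dose and 50, 48.2 and 47.4 at the high dose. Its groups did not overlap, and its difference of -0.27 ± 0.06 came close to the threshold (edgeR adjusted p = 0.0641) and passed by DESeq2 (0.0194) and without the low-count filter (0.0301). SCD, the delta-9 desaturase gene, differed by -0.26 ± 0.09 (adjusted p = 0.795). Of 25 cholesterol synthesis and uptake genes 11 were lower and 3 higher at the high dose by the test (median -0.10). None passed at the medium dose, where the median was -0.10 and 4 of 25 lay above 0, among the lower ones HMGCS1 (-0.14) and INSIG1 (-0.12). With the Liriopis low dose as reference the medians were -0.03 for fatty acid and -0.07 for cholesterol synthesis. Of 9 cholesterol export genes 1 was higher and 4 lower at the high dose by the test (median -0.29), and none passed at the medium dose. Their medium-dose median was -0.15 from the Schisandrae low dose and 0.06 from the Liriopis low dose. Of 12 genes of PPAR-driven lipid use 7 rose at the high dose (median 0.24), and none passed at the medium dose (median 0.10, 9 of 12 above 0), where PLIN2, a lipid droplet coat gene, differed by 0.13 and VLDLR by 0.18.

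Lists of stress targets, mostly higher at the high dose, had medium-dose medians near 0. Of 34 ATF4 targets 27 were higher and 2 lower at the high dose by the test (median 0.50), but the medium-dose median was 0.00, with 18 of 34 above 0 and values from -0.15 to 0.18. TRIB3, a pseudokinase gene induced by ATF4, read 28.2, 28 and 28.6 CPM at the medium dose, 26, 26.3 and 24.9 at the low dose and 67.9, 68.2 and 68.3 at the high dose. Its medium difference of 0.13 ± 0.08 did not pass (edgeR adjusted p = 1). Of 31 NRF2 targets 16 were higher and 3 lower at the high dose by the test (median 0.29), against a medium-dose median of 0.02. HMOX1, which breaks down haem, read 56.3, 57.5 and 55.8 CPM at the medium dose, 59.5, 57.8 and 61.5 at the low dose and 72.9, 77.3 and 78.6 at the high dose, so its medium difference of -0.08 was opposite in sign to the high one. Of 22 endoplasmic reticulum folding genes 15 were higher and 1 lower at the high dose by the test (median 0.24), with a medium-dose median of 0.01 and values from -0.10 to 0.08. HSPA5, the main chaperone of that compartment, differed by 0.07 at the medium and 0.89 at the high dose.

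Proliferation lists had medium-dose medians near 0, and none of their genes passed, as for nearly all genes tested. Of 38 DNA replication genes 28 fell at the high dose (median -0.28), and the medium-dose median was -0.02 with values from -0.15 to 0.10. Of 35 mitosis genes 20 were higher and 1 lower at the high dose by the test (median 0.16), and the medium-dose median was 0.03 with 28 of 35 above 0, against -0.01 with the Liriopis low dose as reference. MKI67, a proliferation marker, read 253, 291 and 242 CPM at the medium dose and 254, 268 and 293 at the low dose. The p53 target CDKN1A (-0.09), the drug transporter gene ABCB1 (-0.11) and the AHR targets CYP1A1 (-0.05) and CYP1B1 (0.00) did not pass either. At the high dose ABCB1 (-0.72) and CYP1B1 (-0.20) were called lower and CYP1A1 (0.48) higher, and CDKN1A (-0.05) did not pass.

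Actin cytoskeleton genes had a medium-dose median that depended on the reference. Of 15 actin cytoskeleton genes 12 fell at the high dose (median -0.37), and none passed at the medium dose. The medium-dose median was 0.01 from the Schisandrae low dose and -0.12 from the Liriopis low dose. COL1A1, a main fibrillar collagen gene, read 3400, 3670 and 3850 CPM at the medium dose and 3330, 3450 and 3360 at the low dose (log2 difference 0.11 ± 0.04, edgeR adjusted p = 0.967). Of the 13 mitochondrially encoded genes 12 lay above 0 at the medium dose (median 0.17), none passed, and the median against the Liriopis low dose was -0.03. The mitochondrial share of counts differed between libraries as given above, and its part in this median was not tested.

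**Figure D4:**
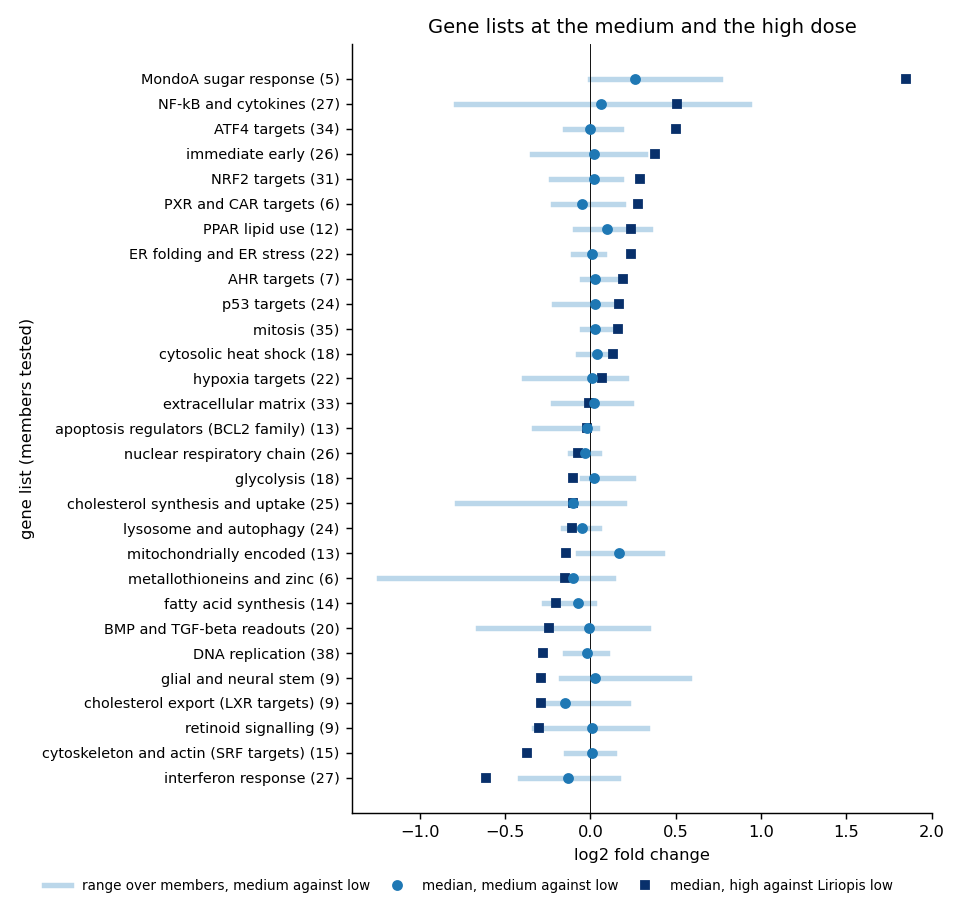
Median log2 fold change of each gene list at the medium against the low dose (circles, with the range over members as a bar) and at the high against the Liriopis low dose (squares), ordered by the high-dose median; cell type marker lists are left out. Circles lie between -0.15 and 0.26, and squares between -0.61 and 1.85.

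The promoters of 6 of the 7 genes were also searched for binding motifs of stress regulators over the same 250 bases of the RefSeq table. The AHR core GCGTG on both strands was present in 5 of the 6 and in 31.9% of 27305 promoters, which it shares in part with CACG since GCGTG contains CGTG. The NRF2 element TGACNNNGC was present in the promoter of the carboxypeptidase M gene and in 11.1% of all promoters. The ATF4 element TGATGNAA (3.19% of promoters), the sterol element (0.487%) and the ER stress element (0.0769%) were not in these windows.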

How the data were processed

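The deposited table holds expected counts per Ensembl gene for 60 libraries of SW1783 cells (60675 genes, of which 10.86% of the values are not whole). Per the submitters' processing notes the tools included FastQC 0.11.9, Trim Galore 0.6.5, STAR 2.7.3a and RSEM 1.3.3 with the human build hg38; the annotation release and strand setting are not known from the sources used. The library kit was directional, per the labels' protocols.

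Counts were rounded, and the 54 libraries of the 19 groups with replicates were fitted together in R 4.3.3 with edgeR 4.0.16 (TMM, filterByExpr, glmQLFit, glmQLFTest), which left 17851 genes (29.4%) and 35 residual degrees of freedom. P-values were adjusted by Benjamini-Hochberg over all genes tested, with a threshold of 0.05. Levels are TMM-scaled CPM (counts per library of 1000000). Errors of log2 differences are standard errors, and intervals cover 95%. Gene symbols were matched for 56558 IDs. The procedure was tested on simulated data, with changes larger than most of those called at the medium dose, so that test does not cover differences of their size. DESeq2 1.42.0 and the other alternatives stand in the closing section.

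Genes were named by rule: those passing at the medium dose that reached 5 CPM with every medium library beyond every low one (up to 15 each way), the 10 largest rises and falls of the high dose by the same rule, up to 4 passing members of each of 34 gene lists, and a panel of 12 genes. Results for some genes are not reported here. The libraries, lists and panel were chosen with earlier results of these data known. Replicates of a group were checked for duplicate deposits, and each of 18 pairs differed by more than sampling noise (chi-square per degree of freedom from 2.24 to 24.3). Replicate numbers come from the titles, and deviations of same-numbered medium and low libraries correlated by 0.158, -0.0384 and 0.0487, so they were not treated as pairs. The Liriopis low and medium libraries correlated by 0.332, 0.656 and 0.42 and were taken as pairs in an alternative added after seeing the data. Gene positions come from GENCODE v29 and promoters from RefSeq.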

Additional observations from a re-analysis of the deposited data

Results flagged for a closer look

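For TXNIP the medium-to-low change differed between Schisandrae and Liriopis by a test of the difference itself, in edgeR's quasi-likelihood fit. It changed by 0.70 ± 0.12 more on the log2 scale with Schisandrae (adjusted p = 0.00429), where it rose by 0.62 ± 0.08, whereas the Liriopis difference was -0.08 ± 0.08 (libraries of 9.48, 8.53 and 8.3 CPM at its medium dose). The doses of the 2 extracts differ. With library set 9 fitted alone it did not pass (adjusted p = 0.0829).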

How the results depend on the processing

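Of the 7 genes called at the medium dose, TXNIP, ALDH1A3 and LIPG passed under all 13 alternatives, FAM13B under 7, RGMB under 5 and the carboxypeptidase M gene under 3, and in these 6 the direction held throughout. RGMB failed without the low-count filter (edgeR adjusted p = 0.139), with library set 9 alone (0.151), with only the libraries compared (0.0605), against the Liriopis low dose (0.437) and without medium replicate 2 (0.101) or 3 (0.12) or low replicate 1 (0.1) or 3 (0.0803). The carboxypeptidase M gene failed in the first 4 of these settings and without any one of the 6 libraries, with adjusted p of 0.0685 to 0.475.

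Without the low-count filter (38487 genes tested) 100 genes passed between medium and low dose, 5 of the 7 among them, 42 of the high-dose genes also passed at the medium dose, 104 genes passed against the Liriopis low dose, and 125 passed in the test of the difference between extracts. The cause was not tested. With library set 9 alone, 0 genes passed that test by edgeR (1012 at an unadjusted p below 0.05, and 3 called by DESeq2 over all libraries). With only the libraries compared, 14 genes passed between medium and low, 5 of the 7 among them. By DESeq2 11 passed, all 7 among them and all 11 also called at the high dose, and 27 passed against the Liriopis low dose. With the references exchanged, 13 of the high-dose genes also passed at the medium dose, and the share on the same side was 64.2%. Leaving out 1 library at a time gave 4 to 5 genes between medium and low, 4 to 7 high-dose genes also passing, 6 to 13 genes against the Liriopis low dose (6 without medium replicate 2, 9 without Liriopis low replicate 2), 1 to 3 in the test between extracts and 70.8 to 74.6% on the same side. The replicate block gave 9 genes between medium and low, FADS2 (adjusted p = 0.0399) and LGR6 (0.0376) in addition to the 7, and changed the call of no other gene named. Between the medium and low dose of Liriopis, whose same-numbered libraries deviated together, the block over the whole library set called 1 gene (1416 at an unadjusted p below 0.05). A replicate block in the Liriopis libraries alone called 0 by edgeR (1316 at an unadjusted p below 0.05), with 2 called by DESeq2 without a block, and left 2 genes in the test between extracts (TXNIP adjusted p = 0.00442). The high-dose rises and falls were 4013 and 4051 with DESeq2 size factors, and 3847 and 3740 without the low-count filter. SLX1B passed at the medium dose without the filter only (-0.84, adjusted p = 0.00938), opposite in sign to the high dose. The median standard error between medium and low dose was 0.1 on the log2 scale over all genes tested. It was 0.0733 over the 11140 genes that averaged at least 5 CPM, so what could be detected with 3 libraries a group differed between genes.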

Other observations

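NSUN6, which encodes an RNA cytosine methyltransferase, was highest at the medium dose, and it was singled out after its values were seen. Its libraries read 8.73, 8.29 and 7.27 CPM at the medium dose, 6.12, 5.6 and 6.37 at the low dose, 6.6, 6.28 and 6.35 at the high dose and 5.72, 5.64 and 6.32 at the Liriopis low dose. Vehicle libraries read 6.77, 7.59 and 6.69. The medium dose did not pass against the low dose (log2 difference 0.43 ± 0.09, edgeR adjusted p = 0.0618, and 0.0276 without medium replicate 3) and passed against the Liriopis low dose (0.46 ± 0.09, adjusted p = 0.0183). From medium to high it fell by 0.34 on the log2 scale (adjusted p = 0.00159).

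FAM72D also came close at the medium dose, with 16.8, 16.1 and 16.1 CPM against 13.2, 12.1 and 12.7 at the low dose (0.37 ± 0.08, edgeR adjusted p = 0.0808, and 0.0325 by DESeq2), and reached 31.7, 29.9 and 31.8 at the high dose. It belongs to a family of near-identical copies, so its counts are uncertain. Genes called at the medium dose against the Liriopis low dose, but not against the Schisandrae low dose, included LRRC17 (-0.27 ± 0.06, adjusted p = 0.0297), SLC4A2 (-0.17 ± 0.03, 0.0314), AHCYL1 (0.20 ± 0.04, 0.0336), DCAF6 (-0.23 ± 0.05, 0.0336) and ICAM5 (0.67 ± 0.13, 0.0146), chosen for naming after their values were seen.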
